A study of Mus musculus with 30 samples.

Results

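Heat shock chaperones were followed through mRNA sequencing of bone marrow–derived dendritic cells (BMDCs). The genes were the HSP70s Hspa1a, Hspa1b and Hspa8, the HSP110 Hsph1, the HSP90s Hsp90aa1 and Hsp90ab1, the J proteins Dnajb1 and Dnaja1, and the mitochondrial pair Hspd1 and Hspe1. They were taken from the count table by Ensembl identifier, which gave 10 of its 43629 genes. All 10 passed the filter on low counts in each of the 13 comparisons made. On GRCm38, Hspa1a (ENSMUSG00000091971, chr17:34969190-34972156) and Hspa1b (ENSMUSG00000090877, chr17:34956436-34959238) are neighbours on the minus strand, and Hsp90ab1 (ENSMUSG00000023944, chr17:45567775-45573271) lies on the same chromosome and strand. Hspd1 (ENSMUSG00000025980, chr1:55077835-55088243, minus strand) and Hspe1 (ENSMUSG00000073676, chr1:55088132-55091307, plus strand) overlap at their starts. The counting sets no option on strand or overlap, so reads from the stretch they share could not be assigned to either gene. The others are Hspa8 (ENSMUSG00000015656, chr9:40800984-40805200), Hsp90aa1 (ENSMUSG00000021270, chr12:110690605-110702728), Hsph1 (ENSMUSG00000029657, chr5:149614287-149636376), Dnajb1 (ENSMUSG00000005483, chr8:83608175-83611902) and Dnaja1 (ENSMUSG00000028410, chr4:40722150-40737149). All values are counts over a gene's exons.

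The cells came from mouse bone marrow, from donors of both sexes 6 to 12 weeks old per the methods, grown in GM-CSF and cultured for 6 days before stimulation. There were 10 cultures, 5 of WT and 5 of Cacnb3-/- (Cacnb3-KO in the labels), which lack a calcium channel β subunit. Per the methods, WT mice were C57BL/6J and Cacnb3-/- mice C57BL/6N, so genotype and substrain cannot be told apart. Each culture gave 3 libraries named ctrl, 0p5h and 24h, which makes 6 groups of 5 libraries. The stimulus was a pulse of 500 µM ATP for 30 min. For the early time the sources differ, since the labels have the cells taken straight after the pulse and the study's text has them taken 30 min later, and the late time is 24 hours. The treatment field crosses the short sets: it assigns ATP for 30 min to ctrl libraries and vehicle to 0p5h libraries, and only for 24h do field and name match. Sets are therefore given by library name, and which of ctrl and 0p5h was unstimulated was not settled. A comparison of genotypes within a set does not depend on it. The labels do not say whether a culture number is 1 mouse, so p-values measure the spread between these cultures.

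Total counts ran from 8237393 to 32164225 per library. Mitochondrial transcripts took 0.706 to 5.61% of counts in WT and 2.16 to 16.5% in Cacnb3-/-, with medians of 2.55% and 10.5% at 24h. Cacnb3 itself was counted in all libraries, at 1035 to 2143 CPM (counts scaled to a common library size) in WT and 573 to 1331 CPM in those labelled Cacnb3-/-. These ranges overlapped, and since the deleted exons were not given, the gene count does not check the labels. The markers of dendritic cells were detected in all groups, 8 of 8, with a summed level of 11431 to 30074 CPM. They were not evenly high. Group means were 8456 to 15468 CPM for Cd74 and 2882 to 5141 for Ccr7, but 64.5 to 111 for Flt3 and 56.5 to 99.3 for Dpp4. The macrophage marker Csf1r had group means of 333 to 610 CPM. Macrophage markers summed to 576 to 2289 CPM, granulocyte markers to 129 to 687 CPM and lymphocyte markers to 0.345 to 3.54 CPM.

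Chaperones hold unfolded or newly made proteins and release them in cycles of ATP binding and hydrolysis. J proteins such as Dnajb1 and Dnaja1 bring clients to HSP70 and start its hydrolysis, Hsph1 reloads HSP70 with nucleotide, and HSP90 takes over kinases and receptors for their last steps of folding. Hspd1 and Hspe1, the barrel and lid of HSP60, fold proteins inside mitochondria. Protein damage frees the transcription factor Hsf1, which binds heat shock elements, inverted repeats of a short unit, in the promoters of the inducible members. Dendritic cells use these proteins for folding and for peptide handling in antigen presentation.

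The elements are shown because their letters are those that Hsf1 is known to bind, and because one of them lies between a pair of members. Promoters (250 bases before to 50 after each start) came from RefSeq on GRCm38.p6, the build of the count table, and 7 of the 10 members had one, all but Hspa8, Hsp90aa1 and Hsp90ab1. Repeats of 2, 3 and 4 units were searched in either order, and a longer match contains the shorter ones. The repeat of 2 units (GAANNTTC or TTCNNGAA) was in promoters of 6 of 7 members and of 17% of 27025 genes. The repeat of 3 units was in 3 of 7 members, Hsph1, Hspd1 and Hspe1, and in 0.662% of genes. The repeat of 4 units was in 8 genes (0.0296%), among them Hspd1 and Hspe1, which start head to head on chromosome 1. One element of 18 bases, within the printed stretch at chr1:55088053-55088082, lay 89 bases before the Hspe1 start, read on its strand, and on the other strand 144 bases before one of the Hspd1 starts. It also lies inside the span of the Hspd1 gene in the count table, past the other Hspd1 start. In Hsph1 the match lay within the transcript, 15 or 36 bases past its starts, inside the printed stretch at chr5:149636280-149636308 on the minus strand. In Hspa1a (printed stretch chr17:34972207-34972306, minus strand) and Hspa1b (printed stretch chr17:34959289-34959388, minus strand) only a repeat of 2 units was found, 104 bases before each start. Capitals mark the matches.
Hspe1: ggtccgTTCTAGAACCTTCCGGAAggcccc
Hspd1: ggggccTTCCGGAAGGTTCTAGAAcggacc
Hsph1: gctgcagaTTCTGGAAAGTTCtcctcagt
Hspa1a: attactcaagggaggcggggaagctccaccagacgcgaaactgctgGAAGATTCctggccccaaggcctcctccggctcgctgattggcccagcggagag
Hspa1b: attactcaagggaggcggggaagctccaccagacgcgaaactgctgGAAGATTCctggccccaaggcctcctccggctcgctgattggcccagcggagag
The stretches of Hspa1a and Hspa1b shown are the same, and their whole promoters of 300 bases differ at 4 positions (98.7% identical). Neither promoter of Dnajb1 held a match, which says only that these letters are not in these windows.

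Near-identical copies also bear on how well the members could be counted. Of all stretches of 50 bases in the Hspa1a transcript, 60.3% were also found elsewhere in the genome, and 58.8% lay in Hspa1b. The share found elsewhere was 62.3% for Hspa1b, 75.7% for Hspa8, 67.9% for Hsp90aa1, 58.5% for Hspd1, 46.5% for Hspe1 and 26% for Dnaja1. It was 7.76% for Hsp90ab1, 0.488% for Dnajb1 and 0% for Hsph1. No option for reads with several alignments was set in the counting, which by default leaves such reads out. The levels of Hspa1a, Hspa1b, Hspa8, Hsp90aa1, Hspd1, Hspe1 and Dnaja1 can therefore be too low, and Hspa1a and Hspa1b could be told apart only where they differ.

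Hsp90ab1, the constitutive HSP90, was the most abundant member per length of exon. Its median over 30 libraries was 577 CPM per kb of exon, and its lowest library (438) exceeded the highest of Hspa8 (179). Hspa8, the constitutive HSP70, followed with a median of 74.6 CPM per kb, then Hspe1 with 51.6, which Hspa8 exceeded in 23 of 30 libraries. Next were Dnajb1 (20.4) and Hspd1 (18.6 CPM per kb), which could not be ordered on this scale, since Dnajb1 was above Hspd1 in only 17 of 30 libraries. Hsph1 (8.24) and Hsp90aa1, the inducible HSP90 (7.76), were also not separated, with Hsph1 above in 16 of 30. Dnaja1 had 3.49 CPM per kb. The stress-inducible HSP70 genes came last in all 30 libraries, Hspa1b with a median of 1.18 and Hspa1a with 0.595 CPM per kb. Divided by the transcript stretches found nowhere else, a scale added after seeing the data, Hspa8 reached 545 CPM per kb against 707 for Hsp90ab1, and in WT 24h its mean of 805 passed the 793 of Hsp90ab1. On that scale the medians of Hspe1 (196), Hspd1 (50) and Hsp90aa1 (27.3) came before Dnajb1 (13.3), Hsph1 (9.47) and Dnaja1 (7.36 CPM per kb), so the order of Hspd1 and Dnajb1, and of Hsp90aa1 and Hsph1, rests on the length used. Hspa1b (3.19) and Hspa1a (1.53) stayed last. This scale takes 1 GENCODE M39 transcript per gene in place of the exon length of the count table. It is thus not a correction for shared stretches alone. For Dnajb1, with 0.488% found elsewhere, the transcript has 3534 bases against 2263 of exon, and for Hspa8 2394 against 4156. The 10 members together took 0.185 to 0.314% of counts, of which Hsp90ab1 made up 68.2 to 78.5% and Hspa8 10.8 to 23.7%.

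**Figure D1:**
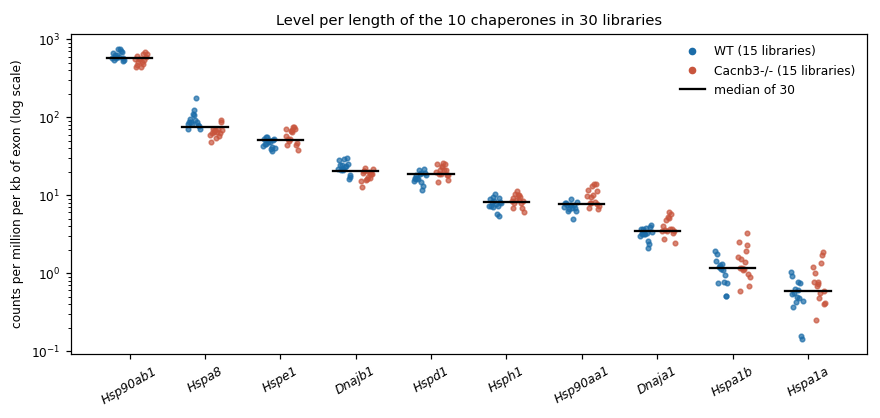
Level of each chaperone as CPM per kb of exon on a log axis, 1 point per library (15 WT, 15 Cacnb3-/-), with the median of 30 as a line. Hsp90ab1 lies above all others, and Hspa1b and Hspa1a lie lowest with the widest spread.

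The inducible HSP70 genes were counted from few reads. Raw counts were 9 to 86 per library for Hspa1a and 28 to 135 for Hspa1b. In WT, Hspa1a had 1.99 ± 0.537 CPM in ctrl, 1.64 ± 1.03 in 0p5h and 1.31 ± 0.509 in 24h (SD, n = 5 each). In Cacnb3-/- it had 2.73 ± 1.69, 2.43 ± 1.32 and 2.39 ± 1.53 CPM. Hspa1b had 3.36 ± 1.1, 3.1 ± 1.51 and 2.85 ± 1.05 CPM in WT, and 3.9 ± 1.49, 3.49 ± 1.48 and 5.1 ± 2.95 CPM in Cacnb3-/-. The groups overlapped for both genes. Their coefficient of variation over 30 libraries was 57.4% and 47.7%, against 14.1% for Hsp90ab1 and 17% for Hsph1, the steadiest members.

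The first comparison of sets asks whether the chaperones moved between the libraries named ctrl and 0p5h. The fit here took libraries as unpaired. No member was called, that is, at an adjusted p under 0.05 and at least 2-fold (edgeR quasi-likelihood test, Benjamini-Hochberg over all genes). In that fit none had an unadjusted p below 0.05 either (0 in WT, 0 in Cacnb3-/-). The share of all genes called was 0.176% in WT and 0.29% in Cacnb3-/-. An unadjusted p below 0.05 was found for 594 of 13085 genes in WT and 509 of 12750 in Cacnb3-/- (edgeR). DESeq2 called 0 members as well. The fitted log2 changes of the members ran from -0.29 (Hspa1a) to 0.15 (Hsph1) in WT, with a median of 0.06 against 0.01 for all genes. The 95% interval lay within 2-fold for 9 of 10 members in WT and 9 of 10 in Cacnb3-/-, the exception being Hspa1a, whose interval reached -1.22 in both. The immediate early genes, a list of 8 that are transcribed within minutes of stimulation, did move between the same libraries. Of these, 4 rose in WT and 5 in Cacnb3-/-, among them Fos by 3.24 and 2.86 and Nr4a1 by 4.31 and 4.57 in log2 units (edgeR, adjusted p between 0.000367 and 0.0194).

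Small differences of Hsp90ab1, Dnajb1 and Hsph1 had the same sign in nearly every culture in this comparison. Hsp90ab1 was higher in 0p5h than in ctrl in 5 of 5 WT cultures, by 0.06 to 0.09, and in 5 of 5 Cacnb3-/- cultures, by 0.10 to 0.25 on the log2 scale. In WT its level went from 1786 ± 185 to 1884 ± 207 CPM. Dnajb1 was lower in 5 of 5 WT cultures and in 4 of 5 Cacnb3-/- cultures, with means of 50.8 ± 6.15 and 46.7 ± 6.42 CPM in WT. Hsph1 was higher in 5 of 5 WT cultures, by 0.02 to 0.23, and in 4 of 5 Cacnb3-/- cultures. With the culture as a replicate block, the adjusted p was 0.0904 for Hsph1 in WT and 0.521 in Cacnb3-/-. It was 0.286 for Hsp90ab1 and 0.158 for Dnajb1 in WT, and 0.332 and 0.34 in Cacnb3-/- (edgeR). No member passed with the block, which 5.96% of all genes in WT and 2.35% in Cacnb3-/- did. With the block, the unadjusted p was below 0.05 for 3 members in WT and 0 in Cacnb3-/-. Of all genes it was for 2829 of 13085 in WT and 1968 of 12750 in Cacnb3-/- (edgeR).

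In the comparison of 24h with 0p5h, again no member was called in either genotype, where 0.639% of genes were in WT and 0.66% in Cacnb3-/-. Without the block, the unadjusted p was below 0.05 for 1 member, Hsp90ab1 in Cacnb3-/-, where it was for 2222 of 12730 genes. In WT it was for 1438 of 12830 genes (edgeR). DESeq2 also called 0 members. The replicate block, used because libraries of 1 culture deviated together, gave 1 member at an adjusted p under 0.05 in WT (11.3% of all genes) and 2 in Cacnb3-/- (28.6% of all genes). In WT, Dnajb1 rose in 5 of 5 cultures. Its levels in 0p5h were 48.5, 48.3, 47.4, 53.3 and 36 CPM in cultures p974s846, p974s850, p974s855, p974s856 and p974s864, and in 24h they were 64, 55.3, 65.1, 68.6 and 38.2 CPM. Culture p974s864 was low at both times, and in the other 4 cultures the highest 0p5h value lay under the lowest 24h value. The fitted log2 change was 0.31 ± 0.08 (SE, adjusted p = 0.0321 with the block, 0.49 without, edgeR).

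In Cacnb3-/-, Hsp90ab1 fell and Dnaja1 rose between 0p5h and 24h. Hsp90ab1 was at 1686, 1825, 1676, 1913 and 2064 CPM in 0p5h in cultures p974s843, p974s851, p974s852, p974s853 and p974s865, and at 1316, 1513, 1312, 1444 and 1766 CPM in 24h. It was lower in 5 of 5 cultures, and the fitted change was -0.31 ± 0.08 (adjusted p = 0.0198 with the block, 0.282 without, edgeR). Dnaja1, a J protein partner of Hspa8, went from 29.8, 30.8, 44.8, 31.9 and 28.1 to 34.7, 41.6, 52.7, 49.7 and 29.7 CPM in the same cultures. It was higher in 5 of 5, with a fitted change of 0.33 ± 0.10 (adjusted p = 0.0309 with the block, 0.336 without). The sets overlapped for both genes, and the shift is seen within cultures. Across 12607 genes, the log2 change in this comparison ran with GC content (Pearson r = -0.47, genes are not independent). With that trend removed in the same blocked fit, neither gene passed, while Hspa1b (0.83, adjusted p = 0.0454) and Hspa8 (-0.33, adjusted p = 0.0229) did, 2 of 10 members where 24.1% of all genes passed.

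The comparison of 24h with ctrl shares its libraries with both comparisons above. No member was called, where 0.0152% of genes were in WT and 0% in Cacnb3-/-. Without the block, the unadjusted p was below 0.05 for 1 member in WT (Hsph1) and 0 in Cacnb3-/-, and DESeq2 likewise called 0. Of all genes, 1106 of 13176 in WT and 1343 of 12452 in Cacnb3-/- had such a p in that fit (edgeR). With the block, 2 members in WT had one, as did 2884 of 13176 genes (edgeR). Hsph1, the nucleotide exchange factor of HSP70, was higher in 24h in 5 of 5 WT cultures and in 4 of 5 Cacnb3-/- cultures. Its mean level was 49.7 ± 7.31 in ctrl and 62.4 ± 8.07 CPM in 24h in WT, with a fitted change of 0.34 ± 0.13 (adjusted p = 0.521 without the block and 0.0502 with it, edgeR), a blocked fit that 6.05% of all genes in WT passed. Hspa1a was lower in 24h in 5 of 5 WT cultures, by 0.16 to 1.61, and in 5 of 5 Cacnb3-/- cultures, by 0.04 to 0.38, but its adjusted p was 0.655 and 0.813. In Cacnb3-/-, Hsp90ab1 was lower in 24h than in ctrl in 5 of 5 cultures (by 0.11 to 0.23), as was Dnajb1 (0.06 to 0.62), and Dnaja1 was higher in 5 of 5 (0.28 to 0.63). Their adjusted p was 0.573, 0.45 and 0.444 without the block (edgeR). Between these sets culture p974s843 did not pass the pairing check (correlation 0.0649). The blocked fit, in which Dnaja1 passed, is therefore given only with the dependence on processing.

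**Figure D2:**
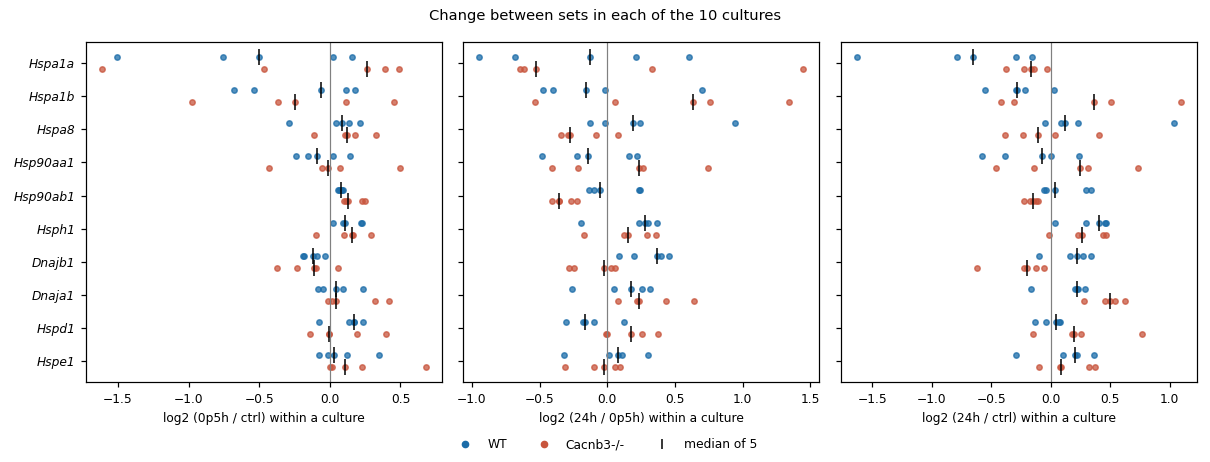
Log2 ratio of CPM between sets within each culture for 0p5h against ctrl, 24h against 0p5h and 24h against ctrl (5 WT and 5 Cacnb3-/- cultures, bars at the median of 5). Hsp90ab1 in Cacnb3-/- lies left of 0 in all 5 cultures for 24h against 0p5h, and Dnajb1 in WT lies right of 0 in all 5.

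The comparison of genotypes asks whether loss of Cacnb3 shifts the chaperones. In no set and not with the 3 libraries of a culture summed was a member called (0% of all genes were called in each of these 4 comparisons, edgeR), and no member had an adjusted p under 0.05. Unadjusted p-values under 0.05 were found for 1 member in ctrl (16.6% of all genes), 2 in 0p5h (16.4%), 6 in 24h (38.4%) and 3 with cultures summed (23.3%). DESeq2 called 0 members at 2-fold, and at an adjusted p under 0.05 alone it gave 1 in ctrl, 5 in 24h and 1 with cultures summed, where 0.988%, 13.1% and 3.53% of all genes passed, genes of low count included. The 6 members of the 24h comparison are thus to be read against that 38.4%. The signs were the same in all 3 sets, with Hspa8, Hsp90ab1 and Dnajb1 lower and the other 7 members higher in Cacnb3-/-. The sets share cultures, so this is not 3 separate observations. In 0p5h the small difference of Hsp90ab1 changed sign with the GC trend removed (0.03) and that of Hspa1b with lane as a covariate (-0.10), and each also did so without single cultures (Hsp90ab1 without p974s843 or p974s856, Hspa1b without p974s853 or p974s864). In ctrl, Hspa1b changed sign without p974s853 (-0.02).

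Hspa8 had the most negative difference from WT of the 10 members in every set. In ctrl it had 356, 339, 444, 363 and 297 CPM in the WT cultures (p974s846, p974s850, p974s855, p974s856 and p974s864) and 263, 268, 266, 260 and 285 CPM in those of Cacnb3-/- (p974s843, p974s851, p974s852, p974s853, p974s865). The groups did not overlap, which held for 1.91% of all genes. The fitted log2 difference (Cacnb3-/- minus WT) was -0.40 ± 0.12 (adjusted p = 0.245, edgeR, and 0.0397 by DESeq2). In 24h the WT cultures had 344, 360, 521, 743 and 323 CPM, and the Cacnb3-/- cultures 201, 274, 226, 241 and 378 CPM. One Cacnb3-/- culture (p974s865) lay within the WT range, and WT culture p974s856 lay far above the others. The difference was -0.78 ± 0.25 (adjusted p = 0.0567). With cultures summed it was -0.47 ± 0.14 (adjusted p = 0.13), and the mean levels of the cultures were 396 ± 83.8 in WT and 276 ± 39 CPM in Cacnb3-/-. The culture means overlapped, as they did for all 10 members, where 4.21% of all genes did not overlap.

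Dnajb1 and Hsp90ab1 pointed the same way, most of all in 24h. Dnajb1 had 64, 55.3, 65.1, 68.6 and 38.2 CPM in WT and 28.7, 45.7, 36.9, 37.1 and 42.6 CPM in Cacnb3-/-, in the culture order above. Of these, only WT culture p974s864 fell into the Cacnb3-/- range. The log2 difference was -0.59 ± 0.17 (adjusted p = 0.0518). Hsp90ab1 had 2010, 1747, 2250, 2137 and 1564 CPM in WT against 1316, 1513, 1312, 1444 and 1766 CPM, with a difference of -0.39 ± 0.15 (adjusted p = 0.0903). In ctrl and 0p5h it differed by -0.10 ± 0.14 and -0.02 ± 0.13, within the spread between cultures.

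Hsp90aa1 and Hspd1 were the members with the clearest higher values in Cacnb3-/-. Hsp90aa1 did not overlap between genotypes in 0p5h (2.01% of all genes), with 27.7, 29.2, 29.8, 27.3 and 27 CPM in WT and 38.4, 31, 52.3, 32.6 and 30.2 CPM in Cacnb3-/-. The difference was 0.40 ± 0.15 (adjusted p = 0.262), and in 24h 0.60 ± 0.21 (adjusted p = 0.064). Hspd1 had 44, 44.4, 49.3, 31.2 and 50.8 CPM in WT in 24h and 67.2, 55.6, 61.4, 65.4 and 47.3 CPM in Cacnb3-/-, of which only the last lay in the WT range. It differed by 0.45 ± 0.15 (adjusted p = 0.0635). No member's groups were free of overlap in 24h, where 6.15% of all genes were.

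The remaining members were higher in Cacnb3-/- in 24h by smaller or less certain amounts. Dnaja1 had 31.9, 31.9, 32.7, 18.4 and 35.3 CPM in WT and 34.7, 41.6, 52.7, 49.7 and 29.7 CPM in Cacnb3-/-, a difference of 0.48 ± 0.20 (adjusted p = 0.1). Hspe1 differed by 0.30 ± 0.15 (adjusted p = 0.16) and Hsph1 by 0.10 ± 0.12 (adjusted p = 0.539). Hspa1a (0.85 ± 0.45) and Hspa1b (0.82 ± 0.42) had the largest fold differences and wide intervals, the highest reaching 1.81, with adjusted p of 0.176 and 0.162. Hspa1b was at 4.07, 3.4, 3.2, 2.19 and 1.41 CPM in WT and at 7.05, 4.26, 3.17, 9.13 and 1.9 CPM in Cacnb3-/-, so that 3 Cacnb3-/- cultures lay above all WT cultures and 1 WT culture below all Cacnb3-/- cultures. The median difference of the 10 members in 24h was 0.37, against 0.01 for all genes. It was 0.07 with the GC trend removed and 0.24 with lane as a covariate.

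The 24h differences moved with other measures and with single cultures. Leaving out Cacnb3-/- culture p974s865 brought 7 members to an adjusted p under 0.05 (Hspa8, Dnajb1 and Hsp90ab1 lower, Hsp90aa1, Hspd1, Dnaja1 and Hspa1b higher), where 35.3% of all genes passed. Leaving out WT culture p974s864 brought 2 (Hspa8 and Dnajb1), near the 18.7% of all genes. These are the Cacnb3-/- culture with the lowest mitochondrial share (3.21% in 24h) and the WT culture with the highest (5.61%). Across 12589 genes the 24h difference ran with GC content (Pearson r = -0.58). With that trend removed, Hspa1a stood at 1.32, Hspa1b at 1.28, Hspa8 at -1.02 and Hspd1 at 0.53, while Hsp90ab1 (-0.15), Dnaja1 (0.07), Hspe1 (0.08) and Hsph1 (0.01) shrank. With the sequencing lane named in the table's header as a covariate (added after seeing the data), Hspa1b stood at 0.45 and Hsp90aa1 at 0.37, and Hspa8 at -0.71. The part of mitochondrial share, GC content and lane in these differences was not tested. In bulk RNA, fewer cells of a type and less RNA per cell cannot be told apart. Dendritic cell markers summed to 11431 to 20855 CPM in Cacnb3-/- in 24h and to 16122 to 28659 CPM in WT, with no marker at 0. Of these 8 markers, 6 were lower and 2 higher in Cacnb3-/-. Cd74 had means of 8456 CPM in Cacnb3-/- and 13669 in WT, and Cd86 of 240 and 206. Macrophage markers there summed to 623 to 1600 and 751 to 1639 CPM, and granulocyte markers to 298 to 631 and 143 to 687 CPM. Gene by gene, 6 of 8 macrophage markers were higher and 2 lower in Cacnb3-/-, with a median log2 difference of 0.28. Csf1r, with high counts in this sum, had means of 333 CPM in Cacnb3-/- and 426 in WT. Of 6 granulocyte markers tested, 3 were higher and 3 lower.

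**Figure D3:**
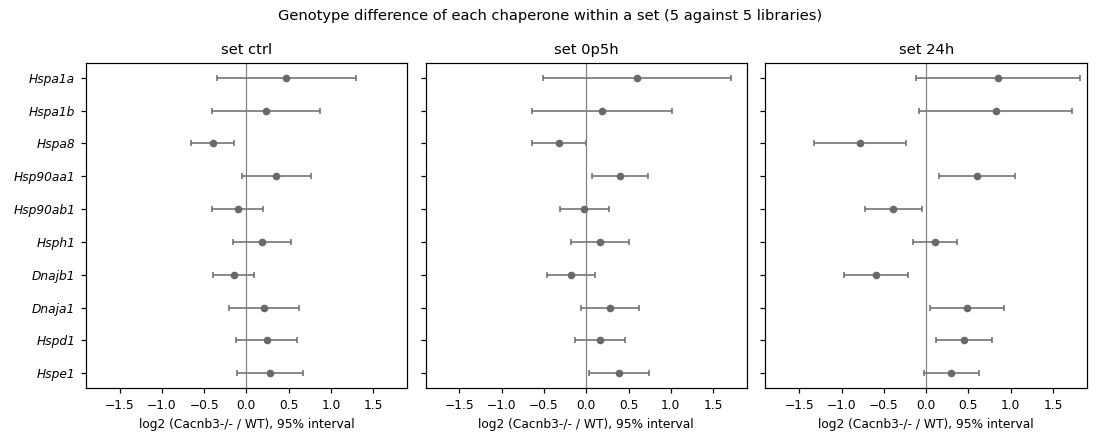
Log2 difference between Cacnb3-/- and WT with its 95% interval (edgeR, 5 against 5 libraries) for each chaperone in sets ctrl, 0p5h and 24h. Hspa8, Hsp90ab1 and Dnajb1 lie left of 0 in every set and the other 7 right of it, with the widest intervals for Hspa1a and Hspa1b.

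Whether the genotypes differed in their change between sets was tested as an interaction. In the fit without the block, no member was called or had an unadjusted p under 0.05 for 0p5h against ctrl, 24h against 0p5h or 24h against ctrl, and DESeq2 called 0 members (edgeR called 0% of all genes in each). Of all genes, 30 of 13465, 789 of 13424 and 658 of 13536 had such a p in these comparisons (edgeR). With the replicate block, 4 members had an unadjusted p under 0.05 for 24h against 0p5h (Dnajb1 -0.39 ± 0.11, Hsp90ab1 -0.36 ± 0.12, Hspa8 -0.42 ± 0.18 and Hspd1 0.28 ± 0.12), where 28.4% of all genes did, and the lowest adjusted p was 0.108 (edgeR). Without the block, the largest values for 24h against ctrl were 0.59 ± 0.53 for Hspa1b and -0.43 ± 0.21 for Dnajb1 (adjusted p = 0.772 and 0.753, edgeR). For Dnajb1 the means were 50.8 and 58.3 CPM in WT ctrl and 24h, and 45 and 38.2 CPM in Cacnb3-/-. From 0p5h to 24h its mean went from 46.7 to 58.3 CPM in WT. In Cacnb3-/- it went from 40.6 to 38.2 CPM, higher in 2 of 5 cultures and lower in 3. No adjusted p of the interaction was under 0.05 for Dnajb1 (edgeR), so the genotypes are not shown to differ in this change.

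Single cultures kept their places over the 3 sets. Of the variation of a member among libraries of 1 genotype, 54.3% (Hsp90aa1) to 74.7% (Hspa1b) lay between cultures. Part of such a share arises by chance, and it was not compared with the share of all genes. Libraries of a culture also deviated together across 13755 genes (median correlation 0.678), so this is not shown to be particular to the members. WT culture p974s856 was the lowest of its genotype in all 3 sets for 4 members (Hsph1, Dnaja1, Hspd1 and Hspe1) and the highest for Dnajb1. WT culture p974s864 was lowest in all 3 for Hspa1a, Hspa1b and Dnajb1 and highest for Dnaja1. Among Cacnb3-/-, culture p974s865 was lowest throughout for Hsph1, Dnaja1 and Hspe1 and highest for Hspa8 and Hsp90ab1, while culture p974s853 was highest for Hspa1a, Hspa1b and Hspe1. In culture p974s853 Hspa1a reached 5.52, 3.99 and 5.01 CPM in ctrl, 0p5h and 24h, where WT culture p974s864 had 1.31, 0.462 and 0.423. The mitochondrial share was 0.706 to 1.13% in culture p974s856, the lowest of WT, and 5.13 to 13.6% in culture p974s853.

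**Figure D4:**
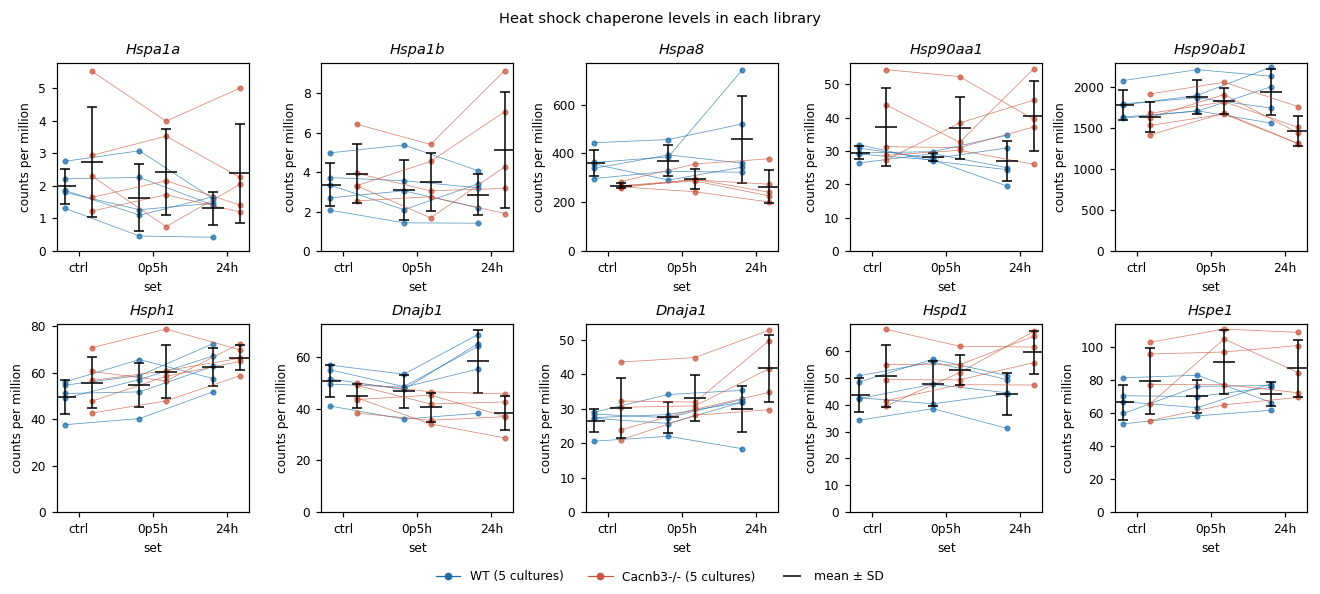
CPM of each chaperone in each library by set, with lines joining the 3 libraries of a culture and mean ± SD of 5 in black. Lines of a culture tend to keep their order, and Hspa8 in 1 WT culture reaches 743 CPM in 24h.

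All members but Hspa1a and Hspa1b fell into 2 sets by how they varied over the 30 libraries, a grouping made after their values were seen. Hspa8, Hsp90ab1 and Dnajb1 correlated with each other with Pearson r of 0.72 to 0.76 on log2 CPM. Hsp90aa1, Hsph1, Dnaja1, Hspd1 and Hspe1 correlated with each other with r of 0.54 to 0.87, Dnaja1 with Hspd1 most of all. All 15 pairs between these groups were negative, from -0.74 to -0.23. Within the 15 Cacnb3-/- libraries all 15 were also negative (median -0.49), while in the 15 WT libraries 2 were above 0 (median -0.21). Hspd1 and Hspe1, which share the element printed above, had r = 0.75, within the range of the other pairs of their group. Hspa1a and Hspa1b had r = 0.86, and their shared stretches were not counted. Libraries of 1 culture are not independent, and the points share depth and mitochondrial share. The latter correlated with Hspa8 (-0.77), Hsp90ab1 (-0.76), Dnajb1 (-0.77), Hsp90aa1 (0.75), Hspd1 (0.73), Hspe1 (0.72), Dnaja1 (0.67) and Hsph1 (0.49). Inside WT its r with Hspa8 was -0.59 and with Hsp90aa1 -0.07.

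**Figure D5:**
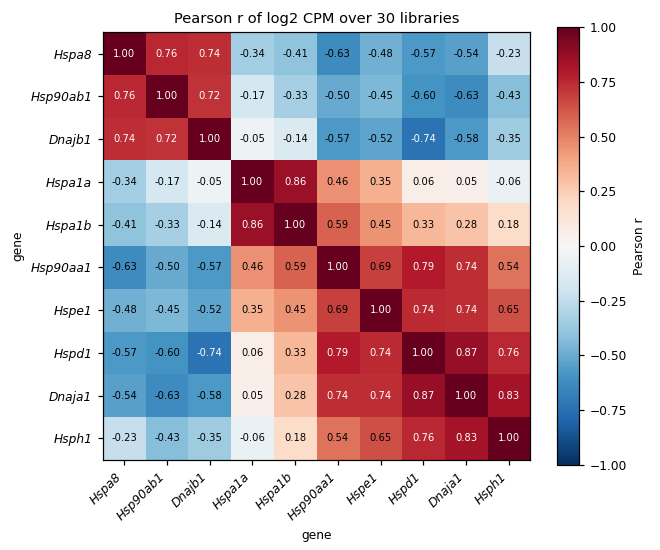
Pearson r between chaperones over 30 libraries on log2 CPM, from blue (negative) to red (positive). The block of Hspa8, Hsp90ab1 and Dnajb1 is negative against the block of Hsp90aa1, Hspe1, Hspd1, Dnaja1 and Hsph1.

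Genes most like a mean of members were named by the highest Pearson r over the same 30 libraries. Both means mix members that ran against each other, such as Hspa8 with Hsp90aa1 (r = -0.63) and Dnajb1 with Hsph1 (-0.35). A gene named here need not run with every member of its mean. For the mean of Hspa1a, Hspa1b, Dnajb1 and Hsph1 these were Pnp2 (0.80), Wfdc10 (0.76), Nmrk1 (0.75), Pygo2 (0.75) and Celf6 (0.74). For the mean of the other 6 members they were Cfdp1 (0.88), Eef1akmt2 (0.85), Eapp (0.83), Uchl3 (0.82) and Rassf3 (0.82). None of these was on the lists of chaperones and co-chaperones used here.

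The regulators and partners of the members were followed as fixed lists. Hsf1, the factor that drives the heat shock response, had 25.2 ± 1.29, 25.1 ± 1.81 and 26.3 ± 2.79 CPM in WT in ctrl, 0p5h and 24h, and 23.6 ± 5.64, 23.3 ± 3.62 and 18.3 ± 3.8 CPM in Cacnb3-/-. Its difference between genotypes in 24h was -0.50 ± 0.15 (adjusted p = 0.0529, edgeR). Hsf2, a related factor, had 134 ± 20.5, 136 ± 15.9 and 153 ± 35 CPM in WT, and 154 ± 62, 163 ± 65 and 247 ± 85.9 CPM in Cacnb3-/-, with a difference of 0.71 ± 0.26 in 24h (adjusted p = 0.0723). With the replicate block, Hsf2 rose by 0.61 ± 0.10 from 0p5h to 24h in Cacnb3-/- (adjusted p = 0.00198), which it did not without the block (adjusted p = 0.31). Hsf4, another factor of this list, fell in the same fit, with a log2 change of -0.61 ± 0.17 (adjusted p = 0.023, edgeR). So 1 of the 5 factors tested passed in each direction, where 28.6% of all genes passed with the block. The change in this comparison ran with GC content across genes (Pearson r = -0.47), and the factors were not followed with that trend removed.

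Among the other chaperones, no gene of any list passed in the 6 comparisons of sets without the block. These lists were heat shock factors (5 tested), small heat shock proteins (3 of 9 tested), other cytosolic HSP70 and HSP110 genes (3 of 7), other cytosolic J proteins (12), co-chaperones of HSP70 and HSP90 (20), subunits of the chaperonin TRiC (8), mitochondrial chaperones and proteases (9) and chaperones of the endoplasmic reticulum (16). With the block, 0p5h against ctrl gave Hspa2, an HSP70 best known from the testis, higher by 0.70 ± 0.07 in WT (adjusted p = 0.000155) and by 0.74 ± 0.09 in Cacnb3-/- (adjusted p = 0.00264). It was lower again in 24h against 0p5h, by -1.02 ± 0.12 in WT and -0.60 ± 0.14 in Cacnb3-/-. Dnajc9, a J protein that also chaperones histones, took the same course, with 0.47 ± 0.11 and 0.48 ± 0.09, then -0.43 ± 0.09 and -0.60 ± 0.10. Dnajb5 rose in WT from 0p5h to 24h by 0.63 ± 0.09 (adjusted p = 0.00346). Of 16 endoplasmic reticulum chaperones, 14 were higher in 0p5h than in ctrl in each genotype. With the block, 2 of them passed in WT and 0 in Cacnb3-/-. Of all genes, 5.96% in WT and 2.35% in Cacnb3-/- passed that fit. For 24h against 0p5h with the block, 11.3% and 28.6% did.

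In Cacnb3-/-, 24h against 0p5h gave passes in both directions among the partners of HSP70 and HSP90, where 28.6% of all genes passed with the block. These lists were also not followed with the GC trend removed. Of 20 co-chaperones, 3 rose and 5 fell. Chordc1, an HSP90 co-chaperone and 1 of the 8 genes with the repeat of 4 units, rose by 0.55 ± 0.09 and the peptidyl-prolyl isomerase Ppid by 0.48 ± 0.10, while Bag6 fell by 0.47 and Cdc37, which hands kinases to HSP90, by 0.57 on the log2 scale. Of 9 mitochondrial genes, 1 rose and 3 fell, with the protease Lonp1 at -0.73 ± 0.09 and Yme1l1 at 0.43 ± 0.11. Of 16 chaperones of the endoplasmic reticulum, 3 rose and 1 fell, with Dnajb9 at 0.54 ± 0.11 and Hyou1 at -0.38 ± 0.10. Of 8 TRiC subunits, Cct7 alone passed, at -0.29 ± 0.08. Of 3 small heat shock proteins tested, 1 passed, and it rose. Neither Hspd1 nor Hspe1 passed here, at 0.17 ± 0.09 and -0.04 ± 0.09.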

How the data were processed

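The authors deposited raw read counts of 43629 genes in 30 libraries, which the file header credits to featureCounts 1.5.1 counting over exons (GRCm38, Ensembl 79) without options on strand, overlap or several alignments. The submitters' processing notes name STAR 2.4, mm10 and DESeq2. The methods give GRCm39, a stranded poly(A) kit and paired reads. Symbols came from GENCODE M39 (89.4% of identifiers). edgeR 4.0.16 in R 4.3.3 (TMM, filterByExpr, quasi-likelihood test, Benjamini-Hochberg over all genes) was fitted to the libraries of each comparison, and CPM used TMM over 30 libraries. Alternatives were DESeq2 1.42.0, its size factors, no filter, no fold minimum, 1 fit of 30 libraries, a replicate block, removal of the GC trend, Hspa1a and Hspa1b summed, each culture left out, and, added after seeing the data, sequencing lane and uniquely found length. Of 30 pairs of libraries with the same culture number, 29 deviated together (correlation over 0.1 across 13755 genes, median 0.678), all but ctrl and 24h of culture p974s843 (0.0649). Members and lists were chosen with earlier results of these data known. Named were all members, Hsf1 and Hsf2, the genes with the smallest adjusted p under 0.05 between sets (up to 4 per list), and the 5 genes most alike. Since no gene of the chaperone and co-chaperone lists passed between sets without the block, that rule was applied to the blocked fit. Not every passing gene of these lists is named. Only the edgeR fit without the block was tried on simulated counts, for some of the comparisons. Those counts had independent libraries and no culture effect or GC trend. The other fits were not tried in this way. Heat shock elements were searched by exact match.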

Additional observations from a re-analysis of the deposited data

Results flagged for a closer look

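Within the 60 sets of 5 libraries tested (10 members in 6 groups), 5 held a library whose gap to its neighbour was over 0.71 of the range, where chance gives about 1 in 20, or 3. Hspa1a was lowest in WT 24h in culture p974s864 (0.423 CPM) and highest in Cacnb3-/- 24h in culture p974s853 (5.01 CPM). Dnaja1 was lowest in culture p974s856 in WT ctrl (20.6 CPM) and in WT 24h (18.4 CPM), and highest in culture p974s852 in Cacnb3-/- 0p5h (44.8 CPM). No member moved one way in all 5 WT cultures and the other way in all 5 Cacnb3-/- cultures.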

How the results depend on the processing

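The count of called members stayed at 0 in all 13 comparisons under every alternative run, except that leaving out 1 culture at a time gave 0 to 1 in Cacnb3-/- against WT in 24h (Hspa1b without culture p974s865, 1.05). At an adjusted p under 0.05 alone, the count of 0 became 5 in 24h with DESeq2 (13.1% of all genes) and with all 30 libraries in 1 fit (29%), and 1 with no filter on low counts (4.89%). It became 1 with DESeq2 in ctrl (0.988%) and with cultures summed (3.53%). Leaving out 1 culture gave 0 to 7 in 24h (7 without p974s865, 2 without p974s864, where 35.3% and 18.7% of genes passed) and 0 to 2 with cultures summed (2 without p974s864, 7.03%). With the replicate block the count was 1 for WT 24h against 0p5h and 2 for Cacnb3-/- 24h against 0p5h. For Cacnb3-/- 24h against ctrl, where the numbers did not pass the pairing check, it was 1 (Dnaja1, 0.48, adjusted p = 0.0211 by edgeR, where 8.54% of genes passed). With the block, the interaction for 24h against ctrl, which rests on the same numbers, gave 2 members (Dnajb1 and Dnaja1) with an unadjusted p under 0.05, as for 19.5% of genes, and 0 at an adjusted p under 0.05. The replicate block with the GC trend removed gave 1 for WT 24h against 0p5h (15.5% of genes), 1 for WT 24h against ctrl (Hsph1, 9.3%) and 2 for Cacnb3-/- 24h against 0p5h (24.1%). Among all genes, edgeR called 0 between genotypes in 24h, against 606 with DESeq2, 376 with no filter, 615 with all 30 libraries, 733 without p974s864 and 1129 without p974s865. DESeq2 called 146 in ctrl, 83 in 0p5h and 251 with cultures summed (edgeR 0). Between sets DESeq2 called 51, 148 and 30 genes in WT (0p5h against ctrl, 24h against 0p5h, 24h against ctrl) and 56, 203 and 48 in Cacnb3-/-, against 23, 82 and 2 and 37, 84 and 0 with edgeR. The block changed no other call of a member. Outside the members, the blocked fit of Cacnb3-/- 24h against ctrl called 1 of 3 small heat shock proteins tested, which was higher. It called 138 of 12452 genes. In the genotype comparison in 24h, 0 of 168 alternative log2 values of members changed sign. Over all 13 comparisons, 38 of 1000 did with a culture left out, 7 of 130 with the GC trend removed, 4 of 130 with lane, 1 of 90 with the block and 7 of 90 with block and GC trend. DESeq2 size factors moved 0 of 60 group levels by more than their SD. Counts of 9 to 86 limit Hspa1a, whose intervals exceeded 2-fold. The cause of these differences was not tested.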
